A study of Mus musculus with 8 samples.

Results

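The genes described here encode the A-type potassium channel complex of neurons. They comprise the pore subunits Kcnd1, Kcnd2 and Kcnd3, the calcium-binding subunits Kcnip1, Kcnip2, Kcnip3 and Kcnip4, and the dipeptidyl peptidase-like subunits Dpp6 and Dpp10. These 9 genes were taken from 40659 gene identifiers by name, as the complete family around Dpp10. Dpp10 itself was singled out because it was labelled in the study's plot of the comparison of the same libraries, so its difference between groups is given below as a description, and a count of called genes that includes it supports nothing about it. The other 8 genes were not chosen by their values.

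A-type current is a potassium current that switches on below the firing threshold and inactivates quickly, and it delays the next spike and dampens signals that travel back into dendrites. In hippocampal pyramidal neurons its somatodendritic part is carried by Kv4 channels, which are tetramers of Kcnd products. KChIPs, the products of the Kcnip genes, bind the intracellular N terminus of Kv4 and promote its transport to the surface. DPP6 and DPP10 resemble dipeptidyl peptidases but lack peptidase activity, cross the membrane in a single pass, and speed up the gating of the channel.

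RNA came from whole hippocampi of 8 male wild-type C57BL/6JRj mice, each sequenced as its own polyA library, with 4 animals per group. All received a recombinant adeno-associated virus in the dorsal and ventral hippocampus at postnatal week 7 to 8, and tissue was taken 4 weeks later. The age is labelled as postnatal week 12 to 13, slightly later than these times give. In both groups the human synapsin promoter drove EGFP with a hairpin in its 3'UTR, which was a control hairpin in hpCTL and a chimeric hairpin overexpressing miR-708-5p in hp708. That promoter is active in neurons, whereas the libraries held RNA from all cells of the tissue, infected or not, so fewer cells of a type and less RNA per cell cannot be told apart. The libraries held 22606824 to 28462428 counts. The precursor gene Mir708 had 0 counts in each of the 8 libraries, which allows up to 3 counts per library, so overexpression could not be checked from these files. The labels conflict for animal 1602, which is the library labelled hp708 replicate 1 but appears among the hpCTL mice of a qPCR panel in the study's source data. Values are given library by library where possible, and differences between groups with and without it.

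A microRNA recognises messenger RNAs mainly through its seed, and the seed of miR-708-5p, bases 2 to 8, is printed in capitals in the RefSeq mature sequence (GRCm38.p6 table) below. Matches were searched in the 3'UTRs of protein-coding transcripts on GRCm39 as AGCTCCTA (8mer), AGCTCCT (7mer-m8) and GCTCCTA (7mer-A1), on the transcript strand only and with each match counted once under the longest kind. Of the 9 genes, Dpp10 held 4 matches, Kcnip2 held 1, and the other 7 held none in any annotated protein-coding 3'UTR. The 5 matches are shown with their surroundings in transcript sense, with the match in capitals, because they are what the family shares with the overexpressed microRNA. All lie on the minus strand of GRCm39.
miR-708-5p: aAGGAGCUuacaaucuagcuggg
Dpp10, chr1:123258800-123258828: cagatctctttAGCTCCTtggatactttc
Dpp10, chr1:123258779-123258807: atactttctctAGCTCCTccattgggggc
Dpp10, chr1:123252276-123252304: tcaggtcagcaAGCTCCTttacaagacta
Dpp10, chr1:123250368-123250396: taattaagggtAGCTCCTtaatcttttac
Kcnip2, chr19:45781336-45781364: ccctcctccttGCTCCTAtggtgggagtg

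The 4 matches of Dpp10 were all 7mer-m8 matches, and 5 of its 7 protein-coding transcripts with a 3'UTR contained them. The first 2 lie close together, with 7mers at 123258811 to 123258817 and at 123258790 to 123258796, and their surroundings overlap. The match of Kcnip2 was a 7mer-A1 match, present in 5 of its 6 transcripts. The number of matches has to be read against length, because the longest 3'UTR of Dpp10 spans 12778 bases, while those of the other 8 genes span 1212 (Kcnip1) to 4793 bases (Kcnd3). Of the 14808 tested genes with a 3'UTR, 26.5% held a match, and Dpp10 ranked 17 by 3'UTR length. Among the 62 genes whose 3'UTR reached 10 kb, 79% held at least 1 match and 12.9% held at least 4. Matches occurred at 0.313 per kb in the 3'UTR of Dpp10 and at 0.154 per kb over all tested genes. A match is a run of letters, and binding was not measured in these libraries. The study drew candidate targets from genes that were lower in hp708 and had predicted sites, so the matches of Dpp10 are no support that is independent of how it was picked.

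The levels of the family were compared first, since this does not involve the contrast between groups. Levels between genes are given in RPKM, CPM divided by the kilobases covered by all annotated exons of a gene, where CPM is the count per 1000000 counts of the TMM-scaled library size. Kcnip2 had the highest level, 54.9 ± 9.35 RPKM in hpCTL (SD, n = 4), followed by Dpp6 with 29.4 ± 1.02, Kcnip3 with 25.8 ± 1.13 and Kcnd2 with 18.3 ± 0.159. Kcnip4 and Kcnd3 lay in the middle, at 13 ± 1.36 and 10 ± 1.43 RPKM. Kcnd1, Dpp10 and Kcnip1 formed the low end, at 2.82 ± 0.373, 2.18 ± 0.199 and 1.85 ± 0.16 RPKM. Kcnip2 encodes KChIP2, and Kcnip3 encodes KChIP3, which is also known as DREAM and calsenilin for roles outside the channel.

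Not all neighbours in this order were apart. Over the 8 libraries, Kcnip2 lay above Dpp6, Kcnip3 above Kcnd2, Kcnd2 above Kcnip4, and Kcnd3 above Kcnd1 without overlap of their ranges. The ranges of Dpp6 and Kcnip3 overlapped, with Dpp6 higher in 7 of 8 libraries and Kcnip3 higher in hp708 replicate 4 (42.5 against 32.2 RPKM). Those of Kcnip4 and Kcnd3 overlapped as well, again with the order kept in 7 of 8 libraries. Kcnd1 exceeded Dpp10 within each of the 8 libraries although their ranges overlapped, and Dpp10 exceeded Kcnip1 in 5 of 8. The order also depended on the length used. With the longest transcript in place of all exons, Dpp6 came first (76.8 RPKM in hpCTL) ahead of Kcnip2 (70.8), and Dpp10 came last (2.71). With the longest coding sequence, Kcnip2 came first again (272 RPKM) and Kcnd1 last (7.62), with Dpp10 at 17.4.

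**Figure D1:**
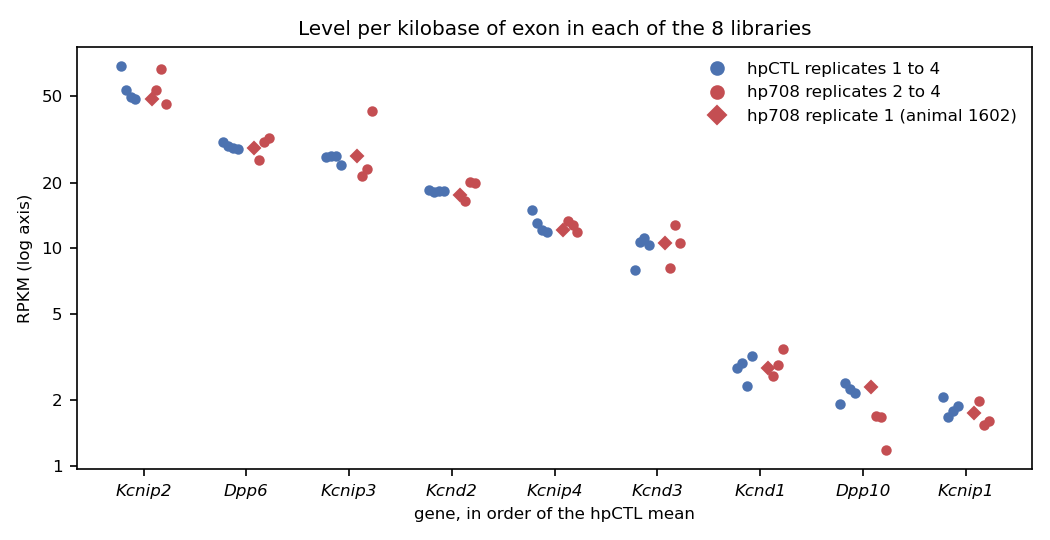
Level of each of the 9 genes in RPKM (y axis, log scale) in each of the 8 libraries, genes ordered from left to right by the hpCTL mean. Blue circles are hpCTL replicates 1 to 4, red circles hp708 replicates 2 to 4 and the red diamond the library labelled hp708 replicate 1. Kcnip2 lies at 46.2 to 68.6 RPKM, and Kcnd1, Dpp10 and Kcnip1 lie below 3.5 RPKM in all libraries.

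Among the pore subunits, Kcnd2 (Kv4.2) made up most of the summed level and Kcnd3 (Kv4.3) most of the rest. In hpCTL, Kcnd2 accounted for 58.8 ± 2.97% of the summed pore RPKM (SD, n = 4), Kcnd3 for 32.1 ± 3.47% and Kcnd1 (Kv4.1) for 9.06 ± 1.21%. In hp708 the shares were 58.1 ± 1.95%, 32.7 ± 2.61% and 9.2 ± 0.847%, and the ranges of the groups overlapped for each of the 3 genes. Without the library labelled hp708 replicate 1 the hp708 shares were 58.5 ± 2.14%, 32.3 ± 2.98% and 9.23 ± 1.03% (n = 3). Per coding length the split between the main pores was closer, with 49.1% for Kcnd2, 44.2% for Kcnd3 and 6.69% for Kcnd1 in hpCTL.

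Kcnd2 was the steadiest of the pores. The 4 hpCTL libraries had 107, 105, 106 and 106 CPM, and the 4 hp708 libraries 101, 94.6, 116 and 116 CPM. The hp708 libraries lay on both sides of the narrow hpCTL range, and the log2 fold change of hp708 over hpCTL was 0.02 (standard error, SE, 0.05) by edgeR's quasi-likelihood test, fitted with 3 surrogate variables for hidden sources of variation. Kcnd3 had 78.8, 107, 111 and 103 CPM in hpCTL and 105, 80.5, 126 and 106 CPM in hp708. Each group held a library near 80 CPM, and the log2 fold change was 0.07 (SE 0.07). Kcnd1 had 14.8, 15.7, 12.2 and 16.9 CPM in hpCTL against 14.8, 13.6, 15.3 and 18.2 CPM in hp708, with a log2 fold change of 0.05 (SE 0.14) and groups that overlapped.

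**Figure D2:**
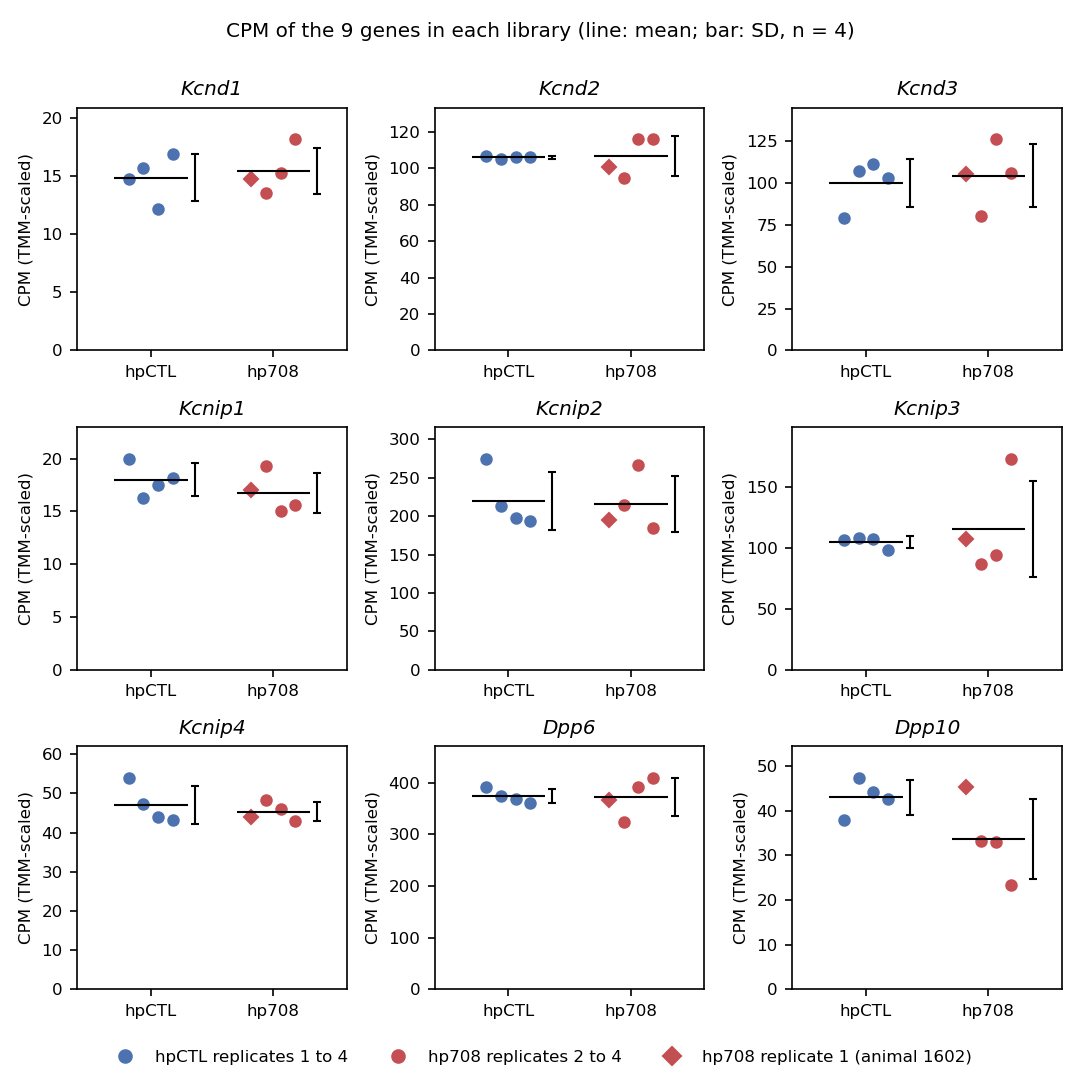
CPM (y axis, linear, from 0) of each of the 9 genes in the 4 hpCTL (blue) and 4 hp708 (red) libraries, with the red diamond for the library labelled hp708 replicate 1, horizontal lines for the group means and bars for the SD (n = 4). The groups overlap for all 9 genes, and for Dpp10 the 3 other hp708 libraries lie below all hpCTL libraries.

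Among the KChIPs, Kcnip2 was the main product. It made up 57.3 ± 2.85% of the summed KChIP RPKM in hpCTL and 55.8 ± 8.01% in hp708 (SD, n = 4), with 27.2 ± 2.62% and 29.4 ± 8.79% for Kcnip3. Kcnip4, of which a variant keeps Kv4 from inactivating quickly, made up 13.6 ± 0.234% and 13 ± 1.45%. Kcnip1, in the hippocampus known mainly from interneurons, made up 1.95 ± 0.177% and 1.8 ± 0.338%, or 5.38 ± 0.474% and 4.99 ± 0.903% per coding length. Replicate 4 stood apart in hp708, with 41.6% for Kcnip3 and 45.2% for Kcnip2, while in the other 3 hp708 libraries Kcnip3 was 22.3 to 29.8%. Without hp708 replicate 1 the hp708 shares were 56.2 ± 9.76% for Kcnip2 and 29.2 ± 10.8% for Kcnip3 (n = 3).

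Kcnip2 had 275, 214, 198 and 194 CPM in hpCTL against 195, 215, 267 and 185 CPM in hp708. Each group held 1 high library, hpCTL replicate 1 and hp708 replicate 3, and the log2 fold change was 0.03 (SE 0.09). The same 2 libraries had the highest mean log2 CPM of the dentate gyrus marker list, 4.63 and 5.05. The others had 4.07 to 4.59. The markers disagreed in hpCTL replicate 1, where C1ql2 had its highest value of all libraries (106 CPM) and Prox1 its lowest (55.5 CPM). That library also had the highest mean of all libraries for the CA1 list (6.20) and the interneuron list (5.80). The part of these lists in the values of Kcnip2 was not tested. Kcnip3 had 106, 108, 107 and 97.9 CPM in hpCTL and 107, 86.8, 94.4 and 173 CPM in hp708. Its high value was that of hp708 replicate 4 only. The log2 fold change of 0.09 (SE 0.18) became -0.08 without that library and 0.31 without hp708 replicate 3.

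The remaining KChIPs varied less. Kcnip4 had 53.9, 47.4, 43.9 and 43.1 CPM in hpCTL against 43.9, 48.4, 45.9 and 42.9 CPM in hp708, with a log2 fold change of -0.04 (SE 0.05). Kcnip1 had 20, 16.3, 17.5 and 18.2 CPM in hpCTL and 17, 19.3, 15 and 15.6 CPM in hp708. Its log2 fold change of -0.11 (SE 0.08) was negative in all 16 alternative analyses, and the groups overlapped. For Kcnip2, which carries the 7mer-A1 match, the sign of the log2 fold change differed in 8 of the 16 alternatives.

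**Figure D3:**
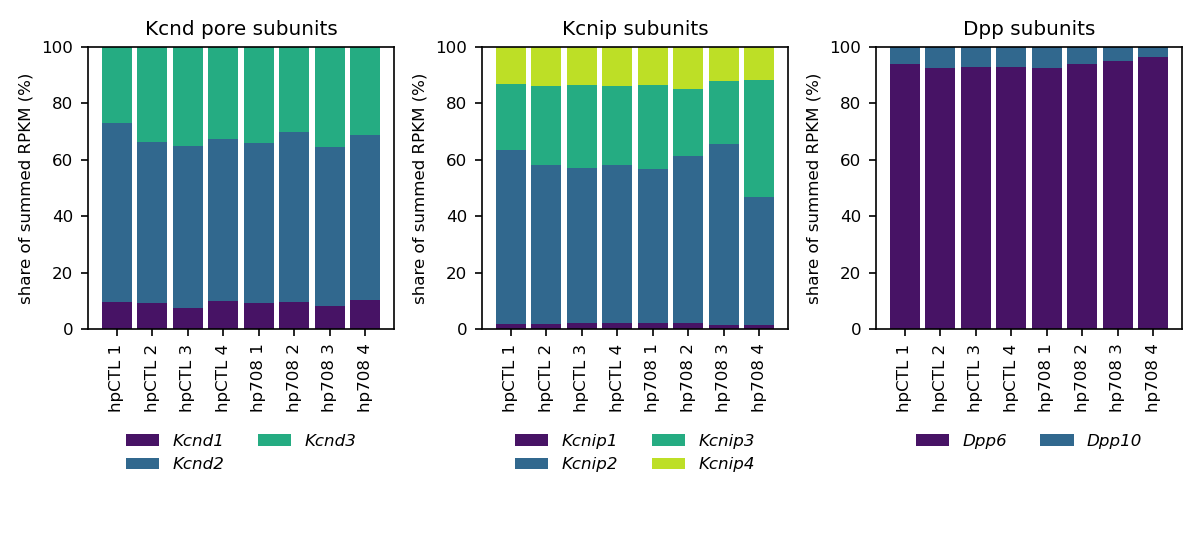
Share of each gene in the summed RPKM of its class (y axis, 0 to 100%), for pores, KChIPs and dipeptidyl peptidase-like subunits, in each of the 8 libraries as stacked bars. Kcnd2, Kcnip2 and Dpp6 hold the largest share of their class in each library, and hp708 replicate 4 has the largest share of Kcnip3 (41.6%) and the smallest of Dpp10 (3.55%).

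Of the dipeptidyl peptidase-like subunits, Dpp6 was by far the more abundant and differed little between groups. It had 392, 375, 369 and 361 CPM in hpCTL and 366, 323, 392 and 409 CPM in hp708. The lowest and the highest library were both hp708, and the log2 fold change was 0.01 (SE 0.05). Dpp6 made up 93.1% of the summed RPKM of this class in hpCTL and 94.4% in hp708.

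Dpp10 was lower in 3 of the 4 hp708 libraries than in any hpCTL library, and the library labelled hp708 replicate 1 lay within the hpCTL range. The hpCTL libraries had 37.9, 47.3, 44.2 and 42.6 CPM and the hp708 libraries 45.3, 33.3, 33 and 23.4 CPM, from 566 to 1251 counts per library. The group means were 43 ± 3.94 and 33.7 ± 9 CPM (SD, n = 4), and without the library labelled hp708 replicate 1 the hp708 mean was 29.9 ± 5.63 (n = 3). The log2 fold change was -0.31 (SE 0.13) with 3 surrogate variables and -0.35 (SE 0.17) without any. Without hp708 replicate 1 it was -0.65 (SE 0.08), or -0.52 (SE 0.14) with no surrogate variables, and with animal 1602 counted as hpCTL it was -0.51 (SE 0.11). Without hp708 replicate 4, the lowest library, it was -0.19. These values come from the contrast on which Dpp10 was picked and are descriptions of it. The SE of 0.08 is no sign of better precision, since that fit estimated 3 surrogate variables from fewer libraries.

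The balance of Dpp6 to Dpp10 followed the values of Dpp10. In RPKM, Dpp6 exceeded Dpp10 by a factor of 16.1, 12.3, 13 and 13.1 in the hpCTL libraries and of 12.5, 15, 18.4 and 27.2 in the hp708 libraries. The highest ratios were those of hp708 replicates 3 and 4, while hp708 replicate 2 lay below hpCTL replicate 1. The size of the factor depends on the gene length, with a mean in hpCTL of 13.6 over all exons, 28.6 with the longest transcript and 8.4 with the longest coding sequence, and its range in hp708 overlapped that in hpCTL with each length. Dpp10 made up 5.86, 7.52, 7.16 and 7.07% of this class in the hpCTL libraries against 7.4, 6.23, 5.15 and 3.55% in the hp708 libraries, so the groups overlapped. On average Dpp10 made up 6.9 ± 0.719% in hpCTL and 5.58 ± 1.64% in hp708 (SD, n = 4), or 4.98 ± 1.35% without hp708 replicate 1 (n = 3). Per coding length it made up 10.7 ± 1.08% in hpCTL and 8.73 ± 2.49% in hp708 (n = 4). The ratio of summed dipeptidyl peptidase-like to summed pore RPKM varied less between libraries, from 0.96 to 1.12 in hpCTL and from 0.91 to 1.01 in hp708, but it too was set by the length used, and its mean in hpCTL was 1.02 over all exons, 2.33 with the longest transcript and 1.43 with the longest coding sequence. The ratio of summed KChIP to summed pore RPKM was 2.71 to 3.83 in hpCTL and 2.88 to 3.34 in hp708, with a mean in hpCTL of 3.09, 3.78 and 4.27 for these lengths.

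Over the family as a whole, edgeR's quasi-likelihood test called 0 of the 9 genes at a false discovery rate (FDR) below 0.05, against 0.00580% of all 17252 genes tested, which is 1 gene outside the family (Igkj1, an immunoglobulin joining segment, named after its values were seen). At an unadjusted p-value below 0.05 it was 1328 genes, or 7.70%. All 9 genes passed the filter on low counts. The FDR of the 8 genes other than Dpp10 was 0.792 to 0.978 and their standard errors were 0.05 to 0.18 in log2 units. Of the 9, 3 had a negative and 6 a positive log2 fold change, with a median of 0.02 against -0.01 over all tested genes. The log2 fold changes of the other 8 genes without the library labelled hp708 replicate 1 were -0.07 (Kcnd3) to 0.19 (Kcnip3). Without the library labelled hp708 replicate 1, the same test with 3 surrogate variables called 1 of the 9, Dpp10, against 0.321% of all genes, and with no surrogate variables it called 0 genes (596 had an unadjusted p-value below 0.05). When animal 1602 was counted as hpCTL it called 0 of the 9 against 0.165% of all genes, and for the 8 libraries as labelled, edgeR's likelihood ratio test and DESeq2, both with 3 surrogate variables, called 0 of the 9 against 0.736% and 0.556%. The CPM of the 2 groups did not overlap for 1.51% of all genes and for 0 of the 9. Without hp708 replicate 1 the hp708 libraries lay below hpCTL for 3.12% of all genes and, in the family, for Dpp10 alone. As Dpp10 was picked on this contrast, nothing follows from these counts for it.

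**Figure D4:**
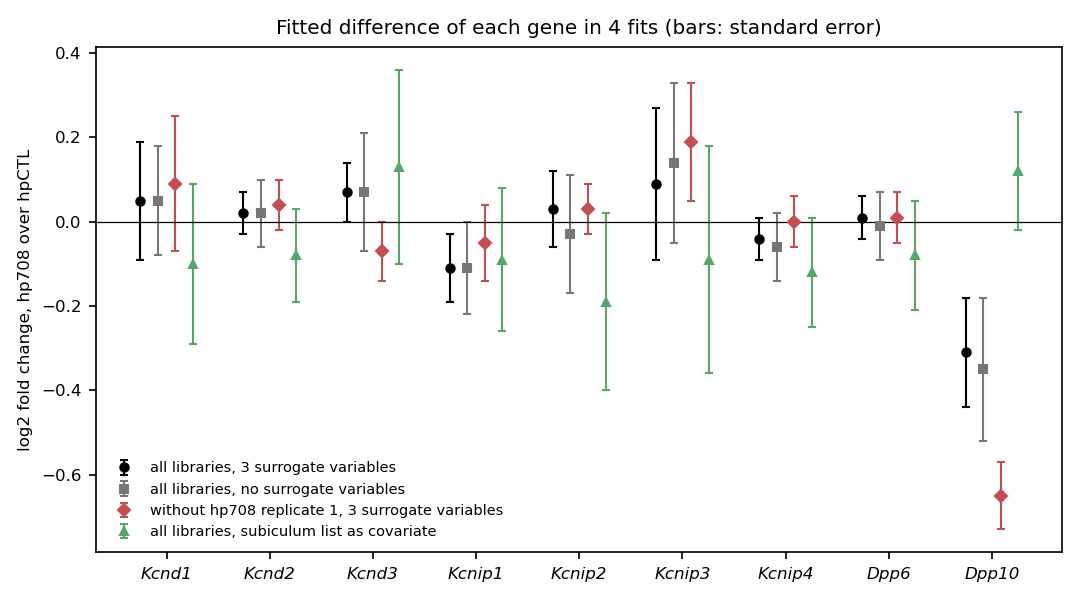
Log2 fold change of hp708 over hpCTL (y axis) for each of the 9 genes in 4 fits of edgeR's quasi-likelihood model, with bars for the standard error. Dpp10 lies at -0.31 with 3 surrogate variables, -0.35 with none, -0.65 without the library labelled hp708 replicate 1 and 0.12 with the subiculum marker list as covariate, whereas the other 8 genes stay within 0.2 of zero in these fits.

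Dpp10 was lowest in the libraries with the lowest mean level of subiculum markers, the subiculum being the region that borders CA1. The marker lists were chosen with earlier results of these data known. This likeness and the covariate fit below are therefore descriptions only. The list held 7 genes, of which 6 were tested and none was at 0 in all libraries. The mean log2 CPM of its tested genes was 3.85, 4.02, 4.16 and 4.00 in the hpCTL libraries against 4.01, 3.38, 3.32 and 3.14 in the hp708 libraries. The 3 libraries lowest in this mean, hp708 replicates 2, 3 and 4, were the 3 lowest for Dpp10, and hpCTL replicate 1 was next in both. Summed CPM of the list overlapped more, at 166 to 227 in hpCTL and 150 to 206 in hp708.

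The subiculum markers did not move alike. The difference between the group means of log2 CPM, hp708 minus hpCTL, was -1.18 for Nts, -0.81 for Slc17a6 and -0.80 for Gpr101, against -0.31 for Ly6g6e, -0.16 for Fn1 and -0.01 for Tle4. Nts, which encodes neurotensin, had 5.68, 5.55, 6.97 and 7.44 CPM in hpCTL against 5.58, 3.87, 1.75 and 1.53 CPM in hp708. Slc17a6, which encodes the glutamate transporter VGLUT2, had 11.4, 18, 15.1 and 19.2 CPM in hpCTL against 15.8, 11.6, 6.95 and 4.83 CPM in hp708. Both were lowest in hp708 replicates 3 and 4. Gpr101 was low in hp708 replicates 2 and 4 (3.48 and 2.89 CPM) but had its highest value of the 8 libraries in hp708 replicate 3 (14 CPM). Ly6g6e was near its highest in hp708 replicate 4 (3.14 CPM), Fn1 was lowest in hpCTL replicate 1 (66.4 CPM), and Tle4 varied little, from 60.7 to 68.4 CPM.

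The log2 fold changes of the 6 markers were -1.12 (Nts, SE 0.24), -0.75 (Slc17a6, SE 0.17), -0.42 (Gpr101), -0.30 (Ly6g6e), -0.16 (Fn1) and -0.01 (Tle4), with a median of -0.36. The quasi-likelihood test of edgeR called 0, against 0.00580% of all genes, the lowest FDR being 0.382. Without the library labelled hp708 replicate 1 the median was -0.79 and the test called 1 of the 6, Slc17a6 (log2 fold change -1.25, SE 0.13, FDR 0.0262), against 0.321% of all genes. With the same 7 libraries and no surrogate variables it called 0 genes (596 had an unadjusted p-value below 0.05). Nts was then at -1.53 (SE 0.23, FDR 0.0535), Gpr101 at -1.42 and Tle4 at 0.02. The likelihood ratio test and DESeq2, both with 3 surrogate variables, called Nts and Slc17a6 with all libraries. Of all genes these tests called 0.736% and 0.556%.

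With the mean of the list as a covariate in place of the surrogate variables, the log2 fold change of Dpp10 was 0.12 (SE 0.14). Replicate 1 was the only hp708 library within the hpCTL range of that mean, so this fit rests on the library with conflicting labels. Without it the list means of the groups did not overlap (3.85 to 4.16 and 3.14 to 3.38), and the covariate was not fitted.

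**Figure D5:**
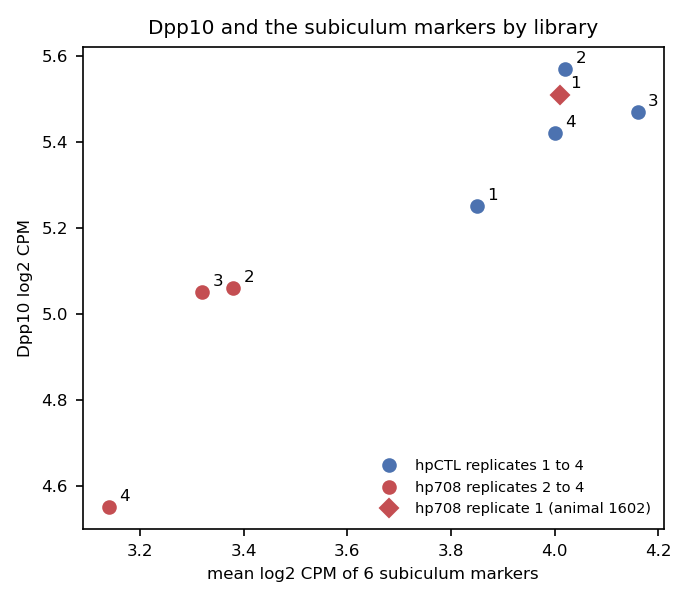
Log2 CPM of Dpp10 (y axis) against the mean log2 CPM of the 6 tested subiculum markers (x axis) in each of the 8 libraries, numbered by replicate. hp708 replicates 2, 3 and 4 lie low on both axes, and the library labelled hp708 replicate 1 (diamond) lies among the 4 hpCTL libraries (blue).

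Markers of cortical layers, which would mark adjoining cortex, overlapped between the groups. Their mean log2 CPM was 3.80 to 4.23 in hpCTL, 4.14 in hp708 replicate 1 and 3.42 to 3.89 in the other 3 hp708 libraries. The log2 fold changes of all 5 were negative, with a median of -0.20 and 0 called, against 0.00580% of all genes. Without hp708 replicate 1 the median was -0.48 and edgeR's quasi-likelihood test called 1 of the 5, Tbr1 (log2 fold change -0.48, FDR 0.0276), against 0.321% of all genes, a call that was lost with no surrogate variables. Markers of CA1, the neighbouring hippocampal field, were at 5.95 to 6.20 in hpCTL and 5.95 to 6.11 in hp708, and with that list as covariate the log2 fold change of Dpp10 was -0.34. Several other lists had log2 fold changes of 1 sign. All 8 markers of the interferon response, all 4 of T cells and all 7 of microglia were negative, with medians of -0.69, -0.69 and -0.26, which became -0.10, -0.11 and 0.04 without hp708 replicate 1. The log2 fold changes of all 5 CA2 and all 5 CA3 markers were positive, with medians of 0.21 and 0.19, or 0.43 and 0.24 without hp708 replicate 1. Oligodendrocyte markers had a median of 0.04, with 5 of 6 positive, and of 0.38 without hp708 replicate 1, with all 6 positive. In these 6 lists 0 genes were called in either analysis, against 0.00580% and 0.321% of all genes. The part of these lists in the values of Dpp10 was not tested. Markers common to neurons summed to 4740 to 5030 CPM in hpCTL and 4380 to 5220 CPM in hp708. Choroid plexus markers varied most between libraries, from 52.6 to 2050 CPM in hpCTL and from 105 to 4380 CPM in hp708. Their median log2 fold change was 0.37, and it was -0.29 without hp708 replicate 1. For Dpp10, the hairpin and these differences in marker levels of hp708 replicates 2, 3 and 4 cannot be told apart in these libraries.

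With the groups as labelled, the SD of the log2 CPM of Dpp10 about the group means was 0.29, above that of 80.9% of the 14762 genes with at least 20 counts in every library. This rested on animal 1602, since the SD was 0.21 (above 65.1% of these genes) without it and 0.19 (above 62.3%) with it as hpCTL. Kcnip3 varied most in the family in all 3 groupings, with an SD of 0.32, 0.35 and 0.32. Kcnd2, Dpp6, Kcnip4 and Kcnip1 were among the steadier, at 0.10 to 0.14 as labelled and 0.11 to 0.16 without animal 1602.

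The genes whose deviations from the group means over the 8 libraries were most like those of Dpp10 were, with the groups as labelled, Sema4g (Pearson's r 0.99, Spearman's rho 0.98), Nipal3, Grb10, Csnk1e and Tcte1 (r 0.98 each, rho 0.88 to 0.93). These are a transmembrane semaphorin, a NIPA-like membrane protein, an adaptor of the insulin receptor, casein kinase 1 epsilon and a ciliary protein, and their likeness is a description over libraries that share their animals and depth. Which genes came first depended on animal 1602. Without it, Nipal3, Grb10 and Sema4g were still among the 5 most like, and Csnk1e and Tcte1 ranked 26 and 38 of 14761 genes (r 0.96 each). With it as hpCTL, 0 of these genes were among the 5 most like, their r was 0.77 to 0.96 and their ranks went down to 448.

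The 5 genes most like Dpp10 within groups had log2 fold changes between groups of -0.11 (Csnk1e) to 0.18 (Tcte1). Sema4g had 25.4, 31.6, 30.6 and 27.9 CPM in hpCTL and 38.5, 27, 27.9 and 19.7 CPM in hp708, so that hp708 replicate 1 was the highest and replicate 4 the lowest of all 8, and the log2 fold change was 0.01 (SE 0.14). Grb10 had 34 CPM in hpCTL and 31 CPM in hp708 on average, and its lowest library was also hp708 replicate 4 with 19.7 CPM. The other members of the family were not close to Dpp10 by this measure, the highest r being 0.16 (Kcnd3, rank 5246) as labelled, 0.21 (Kcnip2) without animal 1602 and 0.20 (Kcnd3) with it as hpCTL. Kcnd2, Dpp6 and Kcnd1 had a negative r as labelled (-0.55, -0.48 and -0.45, with rho -0.71, -0.48 and -0.60) and without animal 1602 (-0.48, -0.63 and -0.54). Kcnip3 had the lowest r of the family in each grouping, -0.61 as labelled, -0.84 without animal 1602 and -0.83 with it as hpCTL. As labelled its rho was -0.12, and its high value was that of hp708 replicate 4.

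The wider set of genes around the channel was described by 4 related lists. The quasi-likelihood test of edgeR called 0 of their genes at an FDR below 0.05, both with and without the library labelled hp708 replicate 1. Of all genes it called 0.00580% and 0.321%, so 0 calls in such short lists say nothing about them. The other pore and beta subunits that give or shape A-type currents, mostly Kcna, Kcnc, Kcnab and Kcne genes, comprised 13 genes, of which Kcne1 and Kcne3 were too low to be tested. Of the 11 tested, 3 had a negative and 8 a positive log2 fold change, with a median of 0.09 (0.12 without hp708 replicate 1). Kcna1, the axonal Kv1.1 channel, had 20.7, 38.7, 48.1 and 43.4 CPM in hpCTL and 45.2, 31.7, 58 and 62 CPM in hp708. hpCTL replicate 1 stood low, the groups overlapped, and the log2 fold change was 0.34, with an SE of 0.06 and an FDR of 0.294. The likelihood ratio test and DESeq2, both with 3 surrogate variables, called Kcna1 at an FDR below 0.05, and the other alternatives did not. Those tests called 0.736% and 0.556% of all genes. Kcnab3, a cytosolic beta subunit, had 30.8, 28.5, 24.4 and 29.5 CPM in hpCTL and 27.5, 19.5, 20.3 and 22.2 CPM in hp708. Its hp708 libraries other than replicate 1 lay below all hpCTL libraries, with a log2 fold change of -0.26, an SE of 0.09 and an FDR of 0.594, or of -0.41 without replicate 1 (FDR 0.155).

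The enzymatically active relatives of the dipeptidyl peptidase-like subunits, Dpp4, Fap, Dpp8 and Dpp9, had 2 negative and 2 positive log2 fold changes with a median of -0.07 (-0.18 without hp708 replicate 1). Dpp4, which cleaves peptides at the cell surface, was low, at 2.54 ± 0.548 CPM in hpCTL and 2 ± 0.975 CPM in hp708 (SD, n = 4), with a log2 fold change of -0.44, an SE of 0.34 and an FDR of 0.804. With 1 library left out the log2 fold change of Dpp4 ranged from -0.74 to -0.08. Fap, an enzyme of activated fibroblasts, was at 1.73 ± 1.04 and 2.29 ± 2.26 CPM. Its log2 fold change with surrogate variables was -0.20 (SE 0.28, FDR 0.909), opposite in sign to the difference in mean CPM. It became -0.63 without hp708 replicate 1 and was positive in 7 of the 16 alternatives, so that no direction can be given.

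The neuronal calcium sensor relatives of the KChIPs, 9 genes such as Hpca (hippocalcin) and Ncs1, had 4 negative and 5 positive log2 fold changes with a median of 0.06 (0.01 without hp708 replicate 1). Those with the largest absolute values were Guca1a (-0.56, SE 0.54, FDR 0.857) and Guca1b (-0.22, SE 0.24, FDR 0.872), activators of photoreceptor guanylate cyclase that were near or below 1 CPM here. Guca1a has no stable direction, since its log2 fold change was 0.44 (SE 0.64) without hp708 replicate 1 and positive in 7 of 15 alternatives. The scaffolds and kinases that bind or phosphorylate Kv4 comprised 8 genes, with 3 negative and 5 positive log2 fold changes and a median of 0.03 (0.01 without hp708 replicate 1). Camk2a, a kinase that phosphorylates Kv4.2, had 3130 ± 382 CPM in hpCTL and 3710 ± 472 CPM in hp708 (log2 fold change 0.22, SE 0.06, FDR 0.478). Flna, an actin crosslinker that anchors Kv4.2, had 105 ± 22.7 and 125 ± 23.5 CPM (log2 fold change 0.23, SE 0.09, FDR 0.632).

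On GRCm39, the family is scattered over 8 chromosomes and differs widely in gene size. Dpp10 (ENSMUSG00000036815) occupies chr1:123249200-124773776 on the minus strand, 1524.6 kb, and Kcnip4 and Dpp6 span 1135.4 and 910.3 kb. Kcnd1, on chromosome X, spans 16.0 kb and Kcnip2 24.6 kb. The strand setting of the counting is not given in the sources used here, so reads of genes on opposite strands could be shared. The exons of Dpp10 share 123 bases, 0.623% of their length, with the long noncoding RNA Gm35355 on the other strand. The largest shared fraction in the family was that of Kcnip4 (8.96%), followed by Kcnd3 (5.88%, with Kcnd3os) and Kcnd1 (1.53%), and the other 5 genes shared no exon bases.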

How the data were processed

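Whole hippocampi of 4 hpCTL and 4 hp708 mice were profiled by polyA-RNA sequencing. Reads were aligned by the authors with STAR 2.7.8a (GRCm39) and summed per gene with featureCounts 1.6.4, and the table they deposited holds these raw counts, not normalized. Columns were matched to samples by animal number. Names, exon lengths and 3'UTRs came from a later GENCODE release than the one used for counting, so 39641 of 40659 identifiers were named, and lengths are those of the later release.

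From the deposited counts, genes were kept by filterByExpr and tested with edgeR 4.0.16 (R 4.3.3) by the quasi-likelihood test fitted as in edgeR 3, with TMM library sizes, Benjamini-Hochberg adjustment, and as covariates 3 surrogate variables that sva 3.50.0 (svaseq) estimated from these counts. The methods of the study name the likelihood ratio test and a legend the quasi-likelihood test. Standard errors were derived from the log2 fold change and the F statistic. Log2 CPM used a prior count of 2. Likeness to Dpp10 was Pearson's r of log2 CPM after subtraction of the group means. The functions were tested on simulated counts. The lowest chi-square per degree of freedom between libraries of a group was 7.86, so none was a copy of another. No column was left without a sample.

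The genes named are the 9 family members, the 5 most like Dpp10, and in each of 4 related lists the 2 tested genes with the largest absolute log2 fold change. Igkj1, the tested subiculum markers, Tbr1 and list members given as examples of their list are named in addition, after their values were seen. Members, related lists and 18 marker lists were chosen with earlier results of these data known. The alternatives changed the surrogate variables, test, tool (DESeq2 1.42.0), normalization, filter, replicate block, group of animal 1602, covariate, gene length and libraries. Counts of 3 were the limit for a gene at 0, and cover counting error only.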

Additional observations from a re-analysis of the deposited data

Results flagged for a closer look

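The mean log2 CPM of each marker list and the log2 CPM of each of the 9 genes were screened within each group of 4 for 1 library far from the other 3. Of 54 groups, 4 stood out, where chance gives about 1 in 20, or 2.7. All were marker lists and none was a member of the channel family. The CA3 list was 4.32 in hpCTL replicate 1, with the others at 3.93 to 3.98, and 4.59 in hp708 replicate 2, with the others at 4.14 to 4.20. The interneuron list was 5.80 in hpCTL replicate 1, with the rest of that group at 5.60 to 5.62. The thalamus and habenula list was 3.50 in hp708 replicate 2, with the rest of that group at 2.84 to 2.91. Kcnip3 in hp708 replicate 4, at 173 CPM, did not pass this criterion.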

How the results depend on the processing

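The log2 fold change of Dpp10 was negative in 15 of 16 alternatives and became 0.12 with the subiculum list as covariate. With 1 library left out it ranged from -0.65 (without hp708 replicate 1) to -0.19 (without hp708 replicate 4). The number of the 9 genes called at an FDR below 0.05 was 0 in all 16 alternatives and 0 to 1 with 1 library left out, the 1 being Dpp10 without hp708 replicate 1. Over all genes the count, 1 in the analysis reported, was 0 in 8 of the alternatives, which were no, 1 or 2 surrogate variables, a minimum of 10 counts in every library, surrogate variables from TMM-scaled counts, the subiculum list and the CA1 list as covariate, and no surrogate variables with animal 1602 moved to hpCTL. In these 8, edgeR's quasi-likelihood test gave 188 to 2288 genes at unadjusted p-values under 0.05. It was 127 with the likelihood ratio test, 3 with edgeR 4's own quasi-likelihood fit, 96 with DESeq2 and 3 surrogate variables, 2 with DESeq2 and none, 12 with no filter and 29 with animal 1602 as hpCTL. When 1 library was left out the count lay between 0, without hpCTL replicate 3 (520 at an unadjusted p-value under 0.05), and 56, without hp708 replicate 1, and it was 0 throughout if no surrogate variables were used (240 to 596). The cause of these changes was not tested. With a replicate block in place of the surrogate variables, since 8 libraries cannot carry both, 1 gene was called, and the log2 fold change of Dpp10 was -0.38. Same-numbered libraries correlated at -0.04 to 0.02, so the values showed no pairing by number. Other shared origins of the libraries were not tested. Among the other members, the sign changed in some alternatives for Dpp6 (7 of 16), Kcnip2 (8), Kcnd1, Kcnd2, Kcnd3 and Kcnip3 (1 each), and in none for Kcnip1 and Kcnip4. Of the genes named from the related lists, Fap (-0.20 in the analysis reported) was 0.40 with no and with 1 surrogate variable, 0.41 with DESeq2 and none, 0.11 with the replicate block, 0.13 if animal 1602 was moved to hpCTL without surrogate variables, and 1.18 and 0.24 with the subiculum and CA1 lists. With 1 library left out it was -0.63 to 0.74. The positive values in the model reported were 0.07 (without hpCTL replicate 2) and 0.03 (without hp708 replicate 4). Those without surrogate variables were 0.13, 0.61, 0.23 and 0.73 (without hpCTL replicates 1 to 4) and 0.31, 0.72 and 0.74 (without hp708 replicates 1, 3 and 4). Guca1a (-0.56) was in the same order 0.27 and 0.07, 0.29, 0.16, 0.66, and 0.03 with the subiculum list, 0.21 with animal 1602 as hpCTL and 3 surrogate variables, and with 1 library left out -0.78 to 0.83, the positive values being 0.06 (without hpCTL replicate 3) and 0.44 (without hp708 replicate 1) in the model reported, and in the one lacking surrogate variables 0.07, 0.06, 0.83 and 0.27 (without hpCTL replicates 1 to 4) and 0.53, 0.57 and 0.29 (without hp708 replicates 1, 3 and 4). The other 6 kept their sign. Of the 9 genes, 2 kept their rank by level with the longest transcript as length and 5 with the longest coding sequence. The scaled surrogate variables, the coding length, the ratios by length, and the likeness, spread, lists and shares without animal 1602 were chosen after the data were seen. Kcnd1, Kcnip1 and Dpp10 had 298 to 1251 counts per library, and 4 animals per group limit what differences could be called.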
